A study of Mus musculus with 14 samples.

Results

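The complement cascade, the clotting cascade with its natural brakes, and the plasminogen system were followed through 14 SMM102 melanoma tumours by a list of 35 named genes. The rule takes genes by name, as complement, coagulation and plasminogen system members. The list was chosen with earlier results of these data known, so its counts beside those of all genes are descriptive. Of the 35, 34 had values among the 18481 genes of the deposited expression table. Cfi was not analysed here. Of the 34, 32 passed the filter (a value of 1 or more in at least 2 of the 14 tumours) and entered the test, as did 15841 genes in all. C7 and F5 stayed below that level and were described only.

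SMM102 is a mouse melanoma cell line, grown subcutaneously in C57BL/6J females aged 6 to 8 weeks, 2 injections per mouse. Dosing began once a tumour measured 150 to 300 mm3. The BRAF kinase inhibitor vemurafenib (PLX4032) was dosed by intraperitoneal injection, 50 mg/kg, on 5 days of each week. Treated tumours came from day 3 (2 tumours), day 6 (2 tumours), day 18 (2 tumours) and day 27 (4 tumours). Controls came from day 3 (2 tumours) and day 6 (2 tumours); the design text calls them vehicle treated and the sample labels untreated. All groups share the cell line, the strain and the sex. No control was taken after day 6, so at days 18 and 27 treatment and time cannot be told apart. The 4 tumours of day 27 are the left and right tumours of 2 mice, and the columns do not say which pairs share a mouse. They were tested as 4 samples, so p-values that involve day 27 are too small. All comparisons share 1 estimate of spread with 8 residual degrees of freedom, 3 of them from day 27. What the p-values weigh is the spread among these tumours, which may be partly technical.

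Complement is a set of plasma proteases and regulators that mark surfaces for removal: C1r and C1s start the classical route, C2 and C4 carry it on, and C3 is the point where all routes meet. Factor B and properdin amplify C3 cleavage, C6 and C7 build the membrane pore, and membrane proteins such as CD55 and CD46 protect host cells. Clotting runs from tissue factor through factors VII and X to thrombin and is held back by thrombomodulin and tissue factor pathway inhibitor, while urokinase and its receptor turn plasminogen into plasmin at the cell surface. Most circulating complement and clotting factors come from the liver. Macrophages, fibroblasts and adipocytes can make many complement proteins in tissue.

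Values are the deposited signal, a TPM rescaled by the authors, and therefore per transcript length, so that genes can be ranked within a tumour. Changes are differences of log2(value + 1), which understate the change of low genes, with the standard error (SE) of the limma fit. A gene is called, or said to rise or fall, where its limma p adjusted over all 15841 genes is under 0.05. Depth per sample is unknown. In bulk tumours fewer cells of a type and less RNA per cell cannot be told apart. As a check of the labelled tissue, the pigment genes Tyr, Tyrp1, Dct and Mlana were not analysed here, and in controls Pmel averaged 0.606 and Sox10 0.0756, near nothing, against 3.56 for Mitf and 21.3 for Met.

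Sequence before the values: the promoters of the 3 members with the largest called rise at day 3 among those with a promoter in the RefSeq table (GRCm38.p6). They are C3, C1s1 and C1ra, and the windows are chr17:57228087-57228386 on the minus strand, chr6:124542310-124542609 on the minus strand (the first of 2 listed starts) and chr6:124512371-124512670 on the plus strand. Each window is 300 bases, written from 250 bases before the start base, which is position 0. Capitals mark any match, on either strand, to 5 motifs: a STAT site (GAS, TTCNNNGAA), an interferon-response core (GAAANNGAA), an AP-1 site (TGANTCA), a C/EBP site (TTGCNNAA) and an NF-kB site. Matches of different motifs may share bases.
C3: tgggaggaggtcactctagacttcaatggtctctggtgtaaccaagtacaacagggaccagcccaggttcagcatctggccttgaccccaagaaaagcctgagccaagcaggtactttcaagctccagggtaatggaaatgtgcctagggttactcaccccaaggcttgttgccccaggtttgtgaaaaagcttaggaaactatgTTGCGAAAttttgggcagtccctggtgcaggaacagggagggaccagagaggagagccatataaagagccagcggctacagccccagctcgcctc
C1s1: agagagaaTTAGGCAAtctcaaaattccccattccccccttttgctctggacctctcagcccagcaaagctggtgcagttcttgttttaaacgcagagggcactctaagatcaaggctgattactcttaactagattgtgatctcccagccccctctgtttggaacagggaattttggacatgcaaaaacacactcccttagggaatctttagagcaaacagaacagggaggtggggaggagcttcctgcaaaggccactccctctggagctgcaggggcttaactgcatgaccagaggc
C1ra: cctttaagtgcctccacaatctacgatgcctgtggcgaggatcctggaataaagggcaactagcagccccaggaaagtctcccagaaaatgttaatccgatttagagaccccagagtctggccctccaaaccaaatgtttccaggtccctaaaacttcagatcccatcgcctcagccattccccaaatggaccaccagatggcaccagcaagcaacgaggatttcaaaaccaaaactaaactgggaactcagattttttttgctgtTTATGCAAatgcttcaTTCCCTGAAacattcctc
The C3 window held a C/EBP match from -45 to -38, the C1s1 window one from -242 to -235, and the C1ra window a C/EBP match from 16 to 23 and a GAS match from 32 to 40. Promoters were listed for 24 of the 34 members, with 29 starts. C/EBP letters stood in 6 of these starts (20.7%), against 10.8% of all 32851 mouse promoters in the table. The AP-1 letters were also in 6 starts (20.7%, against 7.81% of all promoters), the interferon-response core in 4 (13.8%, against 8.56%) and the GAS letters in 2 (6.9%, against 8.3%). NF-kB letters were in 0 starts, against 8.46% of all promoters. These are letter matches and say nothing of binding.

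After 3 days of PLX4032 the complement genes were raised across the cascade: 15 of 18 tested complement genes rose and 0 fell. The classical proteases (C1ra, C1rl, C1s1), C2, C4b, C3, factor B (Cfb), properdin (Cfp) and C1 inhibitor (Serping1) were all among them, with log2 changes between 1.96 and 4.74. Of the 14 clotting, anticoagulant and plasminogen genes, 5 rose (F7, F10, F13a1, Procr, A2m) and Thbd fell. Together 20 of 32 members rose and 1 fell, where 24.9% of all tested genes rose and 20.8% fell. The rises include Hc and A2m, which passed the filter only through treated tumours in which they were high. The median log2 change was 1.73 over the members and 0.02 over all tested genes, and it was 2.43 for the complement genes and 0.34 for the rest of the members.

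**Figure D1:**
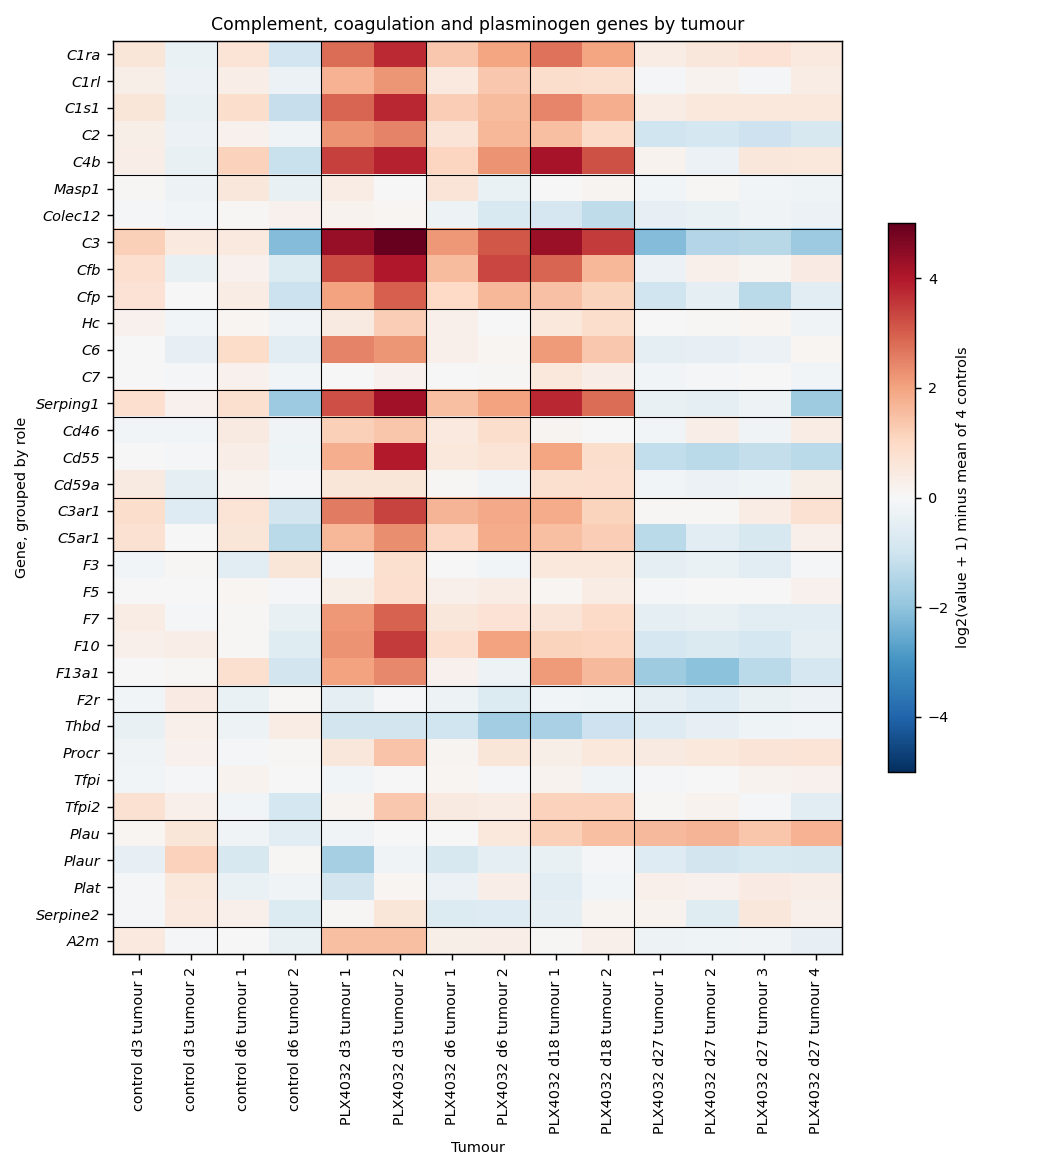
Each cell is log2(value + 1) of 1 gene (rows, grouped by role) in 1 of the 14 tumours (columns), minus the mean of the 4 controls, on a colour scale of log2 units. Red blocks cover most complement rows at day 3 and many at day 18, the day 27 columns are pale or blue for the same rows, and Plau is red at days 18 and 27.

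C3, the protein at which the complement routes converge, had the largest change of the members. Its values were 39.7 and 23.9 in the control tumours of day 3, 24.1 and 3.02 in those of day 6, and 363 and 628 in the treated tumours of day 3. Both treated tumours lay far above all 4 controls, among which tumour 2 of day 6 was the lowest. The log2 change was 4.74 (SE 0.61, limma adjusted p = 0.000253). Factor B, which joins C3 to form the alternative convertase, averaged 437 ± 157 (SD, n = 2) at day 3 against 36.5 ± 18.1 (SD, n = 4) in controls. Its log2 change was 3.62 (SE 0.53, adjusted p = 0.000513), and properdin, which steadies that convertase, rose by 2.50 (SE 0.43). All 3 genes of this route were called at day 3 and kept their call in all 26 settings run.

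The classical route moved as a block of 5 called genes out of 5. C1s1 and C1ra encode the proteases of the C1 complex. C1s1 was 137 and 249.8 under treatment, and the controls ran from 7.41 to 33.4, a log2 change of 3.32 (SE 0.48, adjusted p = 0.000465). C1ra rose by 3.27 (SE 0.44) and the related C1rl by 1.96 (SE 0.29). C2, which C1s cleaves, was 72.4 and 85.5 against 18.3, 11.6, 16.9 and 12.7 in the controls. Its groups did not overlap, as for 58.9% of all tested genes at day 3. The log2 change of C2 was 2.35 (SE 0.27, adjusted p = 0.000145). C4b rose by 3.62 (SE 0.57) from 16.1 ± 11.3 (SD, n = 4) to 179 ± 36.7 (SD, n = 2). The 2 lectin route genes among the members differed. The lectin-associated protease Masp1 and the scavenger collectin Colec12 had changes of 0.20 (SE 0.29) and 0.13 (SE 0.15). These did not pass the test (adjusted p = 0.603 and 0.513), so 0 of 2 were called by limma, and 0 of them had an unadjusted p under 0.05. Outside the members, Fcna, a ficolin of the lectin route, rose by 2.69 (SE 0.41) at day 3. The collectin Colec11, low in all groups, had a change of 1.04 (SE 0.18). Only the treated tumours of day 3 reached the filter level of 1 for Colec11. It entered the test through the group where it was high, so its call gives no independent support. With Fcna raised, Masp1 and Colec12 do not stand for the whole route.

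Genes that restrain complement rose beside those that drive it. Serping1, the serpin that blocks C1r and C1s, reached 231 and 454 against 43.0, 27.6, 42.0 and 6.07 in the controls, a log2 change of 3.71 (SE 0.66, adjusted p = 0.00127). Cd55, which breaks up convertases on host cells, rose by 2.89 (SE 0.48). Its treated tumours were far apart, 11.3 and 54.7, yet both were above the highest control of 3.45. Cd46, a cofactor for C3b breakdown, rose by 1.28 (SE 0.22) from 1.56 ± 0.57 (SD, n = 4) to 5.14 ± 0.58 (SD, n = 2). Cd59a, which blocks pore formation, had a change of 0.62 (SE 0.25) that was not called (adjusted p = 0.0645). Both anaphylatoxin receptors of the list rose, C3ar1 by 2.99 (SE 0.49) and C5ar1 by 1.99 (SE 0.54).

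The pore genes were low. C6 averaged 0.892 ± 0.97 (SD, n = 4) in controls and 7.83 ± 1.12 (SD, n = 2) at day 3, and rose by 2.34 log2 units (SE 0.36). Hc, the mouse gene of C5, rose by 0.84 (SE 0.22) but stood at only 0.562 and 1.67 in the treated tumours. It passed the filter only through the tumour at 1.67 and a day 18 tumour at 1.13, so its call at day 3 gives no independent support. C7 did not pass the filter: its highest value in any tumour was 0.558, at day 18, and it was listed at 0 in 3 tumours.

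Among the clotting factors, F7 and F10 rose and tissue factor (F3), the trigger of factor VII, was not called. F7 had the smallest p of the members: 5.74 and 10.5 under treatment, with controls of 0.936, 0.461, 0.566 and 0.151, a log2 change of 2.55 (SE 0.22, adjusted p = 2.8e-05). F10, the next protease in the chain, stood at 11.1 and 28.0 against 0.653 to 2.18, a change of 2.88 (SE 0.37). F13a1, the transglutaminase that cross-links fibrin and is also made by macrophages, rose by 2.20 (SE 0.44). F3 had a change of 0.35 (SE 0.31, adjusted p = 0.372), with 9.45 and 18.8 inside or just above the control range of 6.70 to 16.0. F5, the cofactor of factor X, was below the filter, with 0.312 and 0.918 at day 3 and 0.0116 to 0.13 in controls. The thrombin receptor F2r was at 41.2 and 54.1, inside its control range of 44.7 to 73.9 or just under it, with a change of -0.24 (SE 0.19, adjusted p = 0.321).

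The anticoagulants split. Thrombomodulin (Thbd), which turns thrombin into an activator of protein C, was 31.5 and 31.8 under treatment, with controls of 47.4, 71.9, 51.3 and 78.7, and fell by 0.92 on the log2 scale (SE 0.27, adjusted p = 0.0164). The Thbd groups did not overlap, as for 58.9% of all tested genes at day 3. Its partner Procr, the protein C receptor, rose by 1.00 (SE 0.22). Tfpi, which blocks the tissue factor complex, stayed between 31.0 and 40.6 in all 14 tumours and had a change of -0.07 (SE 0.12). Its relative Tfpi2 was not called (0.76, SE 0.33, adjusted p = 0.0852). A2m, a broad protease trap, had 2.72 in both treated tumours, with controls from 0.00952 to 0.835. Its change was 1.49 (SE 0.17, adjusted p = 0.000135). Only these treated tumours of day 3 reached the filter level of 1, so A2m entered the test through the group where it was high. Its calls at day 3, from day 3 to day 6 and for late against early thus give no independent support.

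No gene of the plasminogen group passed the test at day 3. Limma called 0 of the 4, and 0 of the 4 had an unadjusted p under 0.05. Urokinase (Plau) changed by -0.07 (SE 0.19), tissue plasminogen activator (Plat) by -0.40 (SE 0.27), the inhibitor Serpine2 by 0.33 (SE 0.34) and the urokinase receptor Plaur by -0.91 (SE 0.45, adjusted p = 0.123). Plaur also had the widest controls of this group, from 55.4 to 214.

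Most day 3 calls held across settings. Of the 21 called members, 17 kept their call in every setting in which they were tested. C5ar1 lost it without tumour 2 of treated day 3, with same-day controls and with the compared groups alone, Hc with the compared groups alone, Procr without tumour 2 of treated day 3, and Thbd without either treated tumour of day 3. The size for low genes followed the constant added before the logarithm: over all settings F7 ranged from 1.22 to 3.81, A2m from 0.53 to 3.00, C6 from 1.13 to 3.46 and Hc from 0.24 to 2.32.

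Markers of other cells moved at the same time. Of 13 macrophage and monocyte markers, 12 rose and 0 fell at day 3, and their summed level ran from 6529 to 11656 against 619 to 1637 in the controls. The marker Lyz2 averaged 5824 against 595. Of 12 fibroblast markers 9 rose and 1 fell (sums of 5373 to 7523 against 3246 to 4125), and all 11 endothelial and all 8 T cell markers rose. No marker of these 4 lists was at 0 throughout. In other lists 5 of 7 neutrophil, 2 of 7 adipocyte, 1 of 8 skeletal muscle and 1 of 4 tested platelet markers rose, and 0 fell. Of 4 tested melanocyte markers 2 rose and 1 fell. Of 9 hepatocyte markers only Apoa2 was analysed here, and it was not called (-0.21). The part of these cell types in the complement values was not tested.

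**Figure D2:**
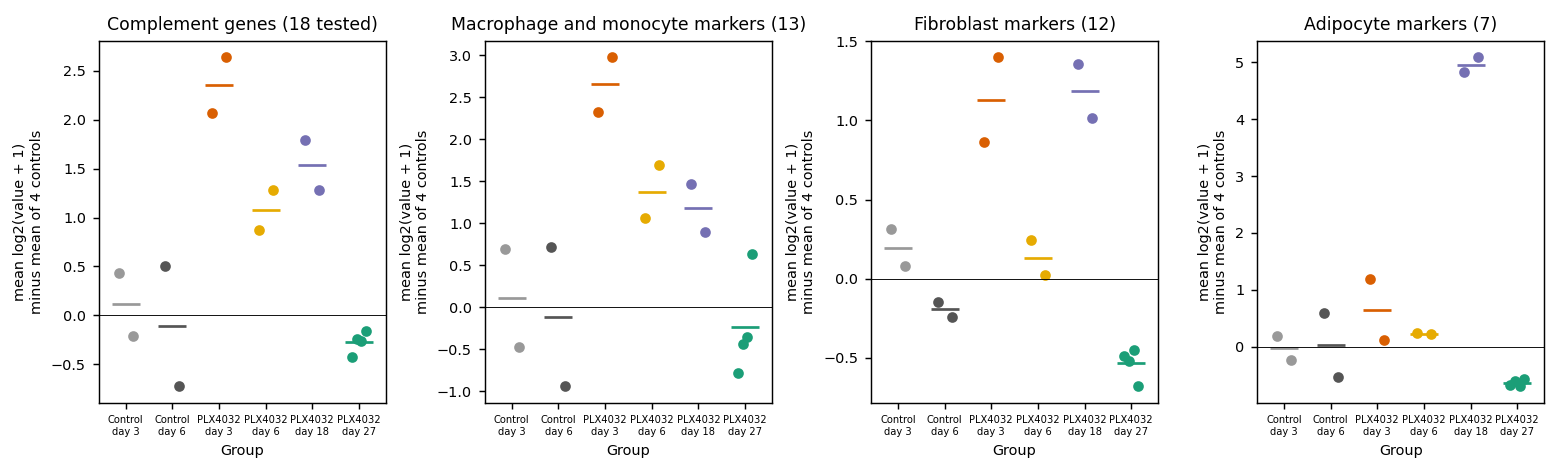
Mean log2(value + 1) of the 18 tested complement genes and of 3 marker lists in each tumour, minus the mean of the 4 controls (log2 units, points are tumours and lines group means). Complement genes and macrophage markers are both highest at day 3, and at day 18 all 4 lists have both tumours above the control mean. At day 27 all 4 lists have group means below the control mean, with tumour 4 of the macrophage list above it (0.63).

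Genes of these cascades outside the 35 were read from a second list of 79 names, of which 41 were tested. At day 3, 25 rose and 3 fell, where 24.9% of all tested genes rose and 20.8% fell, with a median log2 change of 1.05 over the list. The 25 include Colec11, which entered the test only through treated day 3. The largest rises were Fgl2, a fibrinogen-like prothrombinase (3.95, SE 0.52), Itgb2 and Itgam, the chains of complement receptor 3 (3.15, SE 0.46, and 2.81, SE 0.52), and Serpinb2, a plasminogen activator inhibitor (2.85, SE 0.75). Serpinb2 was 1.73 in one treated tumour and 34.5 in the other, with controls up to 0.93, so its size rests on 1 tumour. C1qbp, a mitochondrial protein that can bind C1q, fell by 1.05 on the log2 scale, the cargo receptor Lman1 by 0.62 and Anxa5 by 0.36.

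At day 6 fewer members were called than at day 3. Of 32 members 4 rose against the controls (Cfb 2.46, SE 0.53; C3 2.65, SE 0.61; C2 1.15, SE 0.27; F10 1.43, SE 0.37) and Thbd fell by 1.38 (SE 0.27). Over all tested genes 4.49% rose and 1.43% fell. C3 was 79.8 and 154 at day 6, above its highest control of 39.7. Factor B was 103 and 349, again above its highest control of 61.0, with tumour 2 more than 3 times tumour 1. Thbd, the only member that fell, was 30.0 and 17.4, below the lowest control of 47.4. The adjusted p-values lay between 0.0337 for Thbd and 0.0475 for F10.

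These 5 calls at day 6 were fragile. The count went to 0 without tumour 2 of control day 3, tumour 2 of control day 6, tumour 2 of treated day 6 or any single tumour of day 27, with the compared groups alone or with same-day controls, and it was 14 without tumour 1 of control day 6. At day 6, 1 of 13 macrophage markers was called higher (sums of 1793 to 3476), 7 of 8 T cell markers rose and 2 of 12 fibroblast markers fell.

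Measured directly between treated groups, 9 members fell from day 3 to day 6 and 0 rose, where 7.34% of all tested genes fell and 10.9% rose. This step and the later steps were added after the data had been seen. They share treated groups with the comparisons against controls and give no independent support to them. The falls were F7 (-1.90, SE 0.26), Cd55 (-2.27, SE 0.56), F13a1 (-2.21, SE 0.51), C6 (-2.16, SE 0.41), C1s1 (-1.93, SE 0.55), F10 (-1.46, SE 0.42), C2 (-1.21, SE 0.31), A2m (-1.17, SE 0.20) and Colec12 (-0.62, SE 0.17). F13a1 was back at 10.8 and 7.52, inside its control range of 4.35 to 16.8, and C6 was at 1.05 and 0.885, also inside its controls. C3 had a step of -2.10 (SE 0.70, adjusted p = 0.0611) and Cfb one of -1.15 (SE 0.61, adjusted p = 0.212), both not called. The count was 2 without tumour 2 of treated day 3, 5 without tumour 1 of treated day 6, 14 without either control of day 6 and 4 with the compared groups alone. In the same step 4 of 12 fibroblast markers (median -0.89), 2 of 13 macrophage markers (median -1.31) and 1 of 11 endothelial markers (median -0.89) fell, and their part was not tested.

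**Figure D3:**
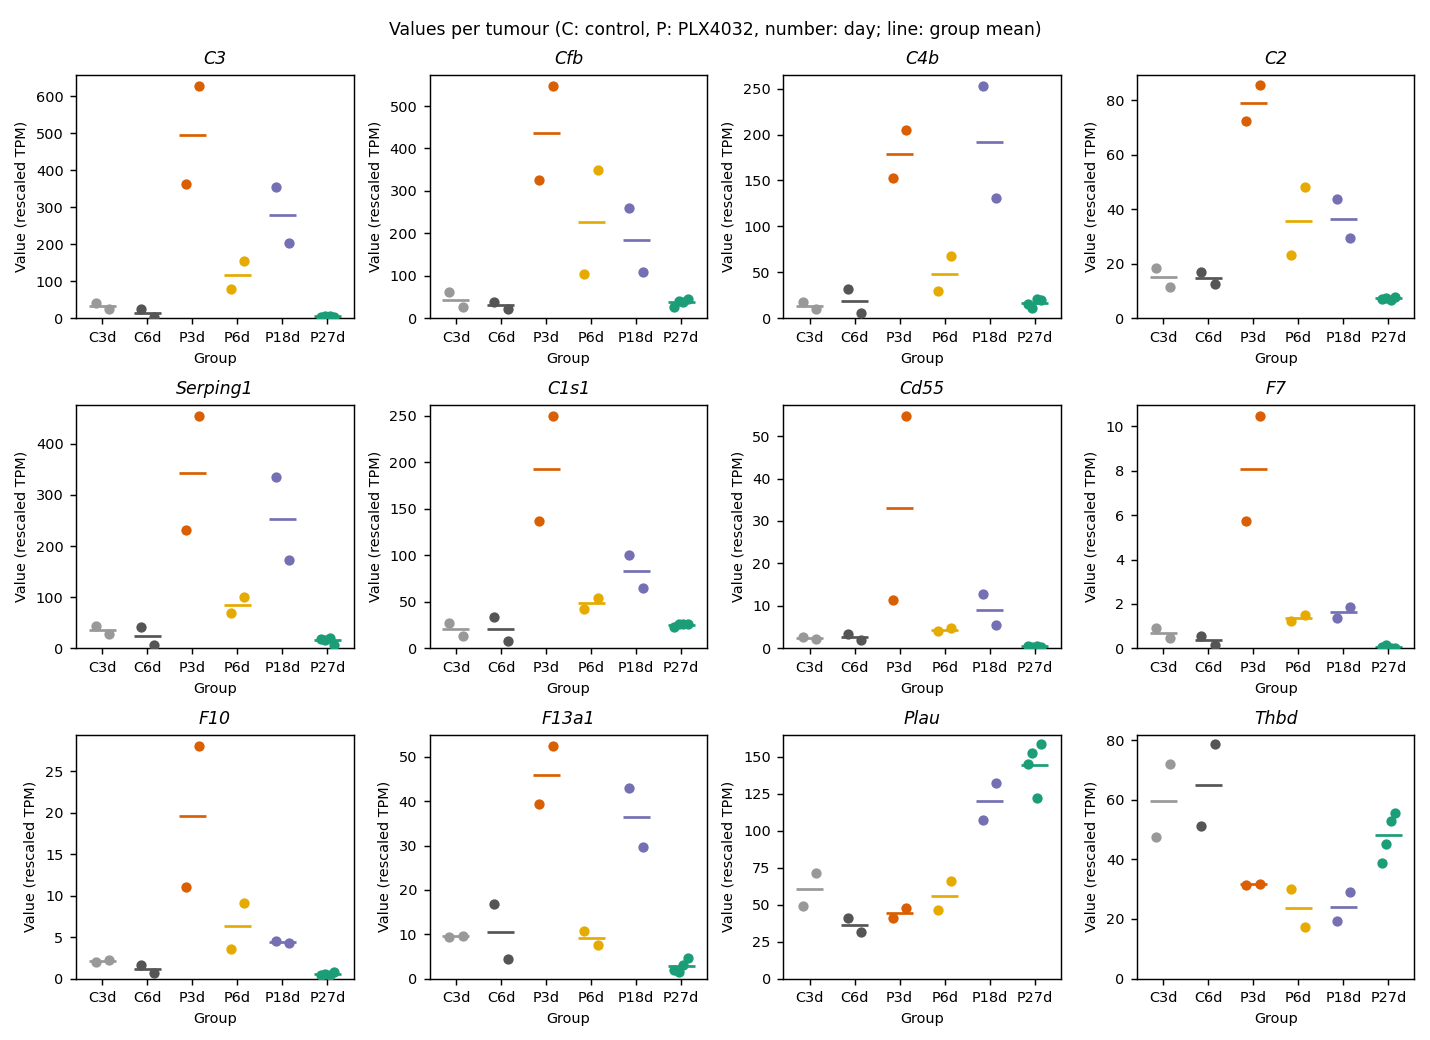
Deposited values (rescaled TPM, linear axes starting at 0) of 12 members in each tumour, with a line at the group mean; C is control, P is PLX4032 and the number is the day. Most panels peak at day 3 (C3 363 and 628), C4b and F13a1 are about as high at day 18, Plau is highest at day 27 (122 to 158), and Thbd is lowest at days 6 and 18.

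At day 18 complement genes again made up most of the calls. Against the controls 10 members rose and 2 fell, where 5.42% of all tested genes rose and 2.5% fell. The median log2 change was 0.97 over the members and 0.07 over all tested genes. Complement supplied 8 of the 10 rises (C3, C4b, Serping1, C1ra, Cfb, C1s1, C6 and C2). The other two were F13a1 and Plau, and Colec12 and Thbd fell.

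C4b was at 253 and 131 at day 18, the first of these above both day 3 tumours (153 and 205), and changed by 3.66 (SE 0.57, adjusted p = 0.00414). C3 was 355 and 203, a log2 change of 3.91 (SE 0.61, adjusted p = 0.00405). Both C3 and C4b stood above all controls in both tumours, and for both genes tumour 1 was the higher. Serping1 rose by 3.28 (SE 0.66), C1ra by 2.35 (SE 0.44), Cfb by 2.29 (SE 0.53), C1s1 by 2.14 (SE 0.48), C6 by 1.73 (SE 0.36) and C2 by 1.24 (SE 0.27). F13a1 was 43.1 and 29.7 against 4.35 to 16.8 in controls, a change of 1.86 (SE 0.44).

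Some genes that had risen at day 3 were not called at day 18. C3ar1 had 1.48 (SE 0.49, adjusted p = 0.0847), C5ar1 1.35 (SE 0.54, adjusted p = 0.136), Cfp 1.28 (SE 0.43, adjusted p = 0.088), F7 0.80 (SE 0.22, adjusted p = 0.0525) and F10 1.10 (SE 0.37, adjusted p = 0.0878). A2m and Cd46 were close to their control means, with changes of 0.16 (SE 0.17) and 0.08 (SE 0.22). None of these misses shows that the gene was at control level.

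Colec12 and Plau had the smallest p at day 18. Colec12, a scavenger receptor of the collectin family, was 97.2, 95.4, 110.2 and 121 in the controls and 58.4 and 42.9 in the treated tumours, below every control. It fell by 1.06 on the log2 scale (SE 0.15, adjusted p = 0.00211), and this call held in all 25 settings. Plau, urokinase, was 107 and 132 against 49.2, 71.4, 41.1 and 31.3 in the controls. It rose by 1.35 (SE 0.19, adjusted p = 0.0026) and lost the call only with the compared groups alone. Its receptor Plaur (-0.23, SE 0.45), Plat (-0.33, SE 0.27) and Serpine2 (-0.16, SE 0.34) were not called.

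The count of 12 at day 18 was 2 without tumour 1 of treated day 18, 7 without tumour 2 of it, 6 without tumour 2 of control day 3, 17 at most when another tumour was left out, and 1 (Colec12) with the compared groups alone. Fibroblast markers were called higher beside these rises (6 of 12 higher, 0 lower, median log2 change 1.09, sums of 5677 to 6913). So were 1 of 11 endothelial and 1 of 4 tested melanocyte markers. All 7 tested adipocyte markers were called higher (sums of 486 to 624.7 against 10.2 to 24.4 in controls). Adipoq averaged 127 at day 18 and 1.78 in controls. Lists without a call had medians of the same size: 1.15 for 13 macrophage markers (sums of 1566 to 2418 against 619 to 1637), 1.31 for 8 T cell markers and 0.93 for 7 neutrophil markers, with 0 called by limma in each. Muscle marker sums were 43.7 in one tumour of day 18 and 1722 in the other. The part of these cells in the complement values was not tested.

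In the wider pathway list 7 of 41 genes rose at day 18 and 0 fell, where 5.42% of all tested genes rose and 2.5% fell. The largest was Cfd, adipsin, the protease that cleaves factor B and that fat cells secrete: it was 1475 and 1737 at day 18 and ranged from 1.18 to 27.8 in controls, a log2 change of 7.80 (SE 0.80, adjusted p = 0.000257). Fcna, a ficolin of the lectin route, rose by 2.61 (SE 0.41), the protease-activated receptor F2rl1 by 2.05 (SE 0.23) and vitronectin (Vtn), which inhibits the pore, by 1.59 (SE 0.34).

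From day 6 to day 18 only Plau passed the test among the members (1.09, SE 0.22, adjusted p = 0.0378), with 1 of 32 higher and 0 lower against 1.36% and 0.145% of all tested genes. Plau was 46.2 and 66.1 at day 6 and 107 and 132 at day 18, without overlap, as for 48.8% of all tested genes. That single call was lost under 16 of 25 settings. F13a1 (1.87, SE 0.51, adjusted p = 0.128), C6 (1.55, SE 0.41, adjusted p = 0.116) and C4b (2.00, SE 0.66, adjusted p = 0.213) had larger steps that were not called.

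**Figure D4:**
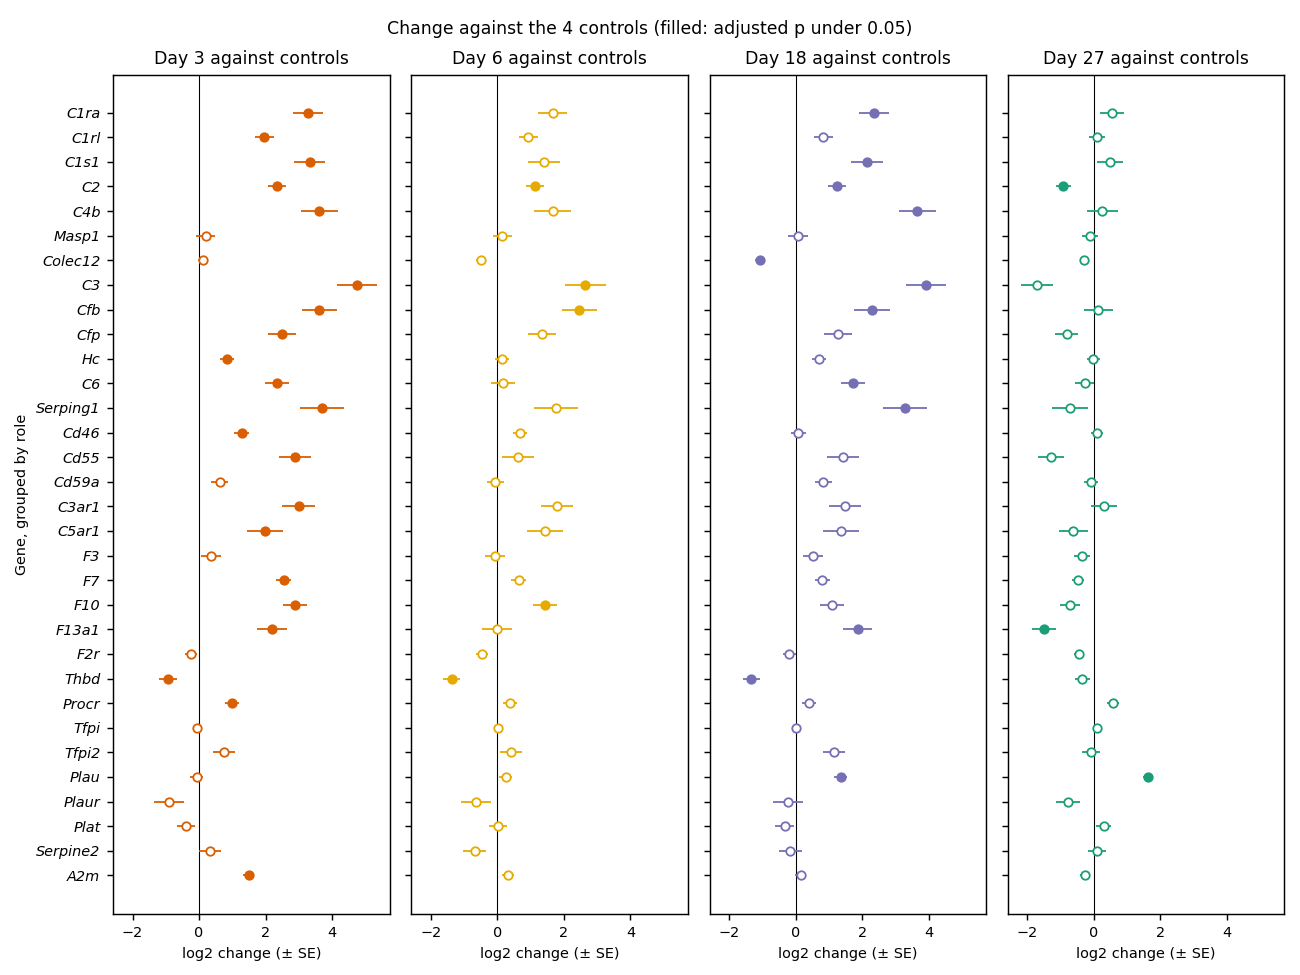
Log2 change of each tested member against the 4 controls at days 3, 6, 18 and 27 (points, log2 units; bars are 1 SE; filled points have limma adjusted p under 0.05). Filled points crowd the right side at day 3 and, for fewer genes, at day 18, while at day 27 only Plau is filled to the right of 0 and C2 and F13a1 to the left.

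At day 27 no complement gene was called higher, and urokinase was the only member that rose. Against the controls 1 member rose and 2 fell, where 3.58% of all tested genes rose and 3.09% fell, so the share of members called was near the background. The median log2 change of the members was -0.19, against 0.01 over all tested genes.

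Plau was 145, 153, 122 and 158 at day 27 and at most 71.4 in the controls. All 4 tumours lay above all 4 controls. The log2 change was 1.62 (SE 0.16, adjusted p = 0.00116), and the call held in all 25 settings, with values from 1.49 to 1.75. The other members of the plasminogen group were not called: Plat changed by 0.30 (SE 0.22), Serpine2 by 0.10 (SE 0.28) and Plaur by -0.78 (SE 0.37, adjusted p = 0.248). Plaur stood between 50.2 and 61.1 in the 4 tumours, which overlapped the lowest control of 55.4.

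C2 was 6.88, 7.52, 6.66 and 7.88 at day 27, below the lowest control of 11.6, and fell by 0.92 (SE 0.22, adjusted p = 0.0329). F13a1 was 1.96, 1.41, 2.97 and 4.71, with only the last inside the control range, and fell by 1.50 (SE 0.36, adjusted p = 0.0334). Both calls were lost without tumour 1 of control day 3, tumour 1 of control day 6, or tumour 1, 2 or 3 of day 27. C2 also lost it without tumour 4 of day 27, and F13a1 without tumour 2 of control day 3 and with the compared groups alone. Both were lost with a constant of 5 added before the logarithm, and in each of the 3 ways of pairing the 4 tumours into 2 mice. The count was 5 without either treated tumour of day 3.

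C3 at day 27 was 3.01, 5.45, 5.84 and 4.05. These values lay between the lowest control, 3.02, and the next, 23.9, or just below the lowest, and the change of -1.71 (SE 0.49) was not called (adjusted p = 0.066). Cd55 was between 0.386 and 0.543, below every control (2.01 to 3.45), with a change of -1.28 (SE 0.39, adjusted p = 0.081). Procr was 22.2 to 26.2 against 13.8 to 18.3, again without overlap, with a change of 0.58 (SE 0.18, adjusted p = 0.0801). Serping1 (-0.71, SE 0.54), C4b (0.25, SE 0.46), Cfb (0.13, SE 0.43), C1s1 (0.50, SE 0.39) and C1ra (0.54, SE 0.36) were not called. Groups did not overlap for 5 of 32 members at day 27, against 13.8% of all tested genes. Macrophage marker sums ran from 475 to 1234 and adipocyte sums from 8.13 to 11.2. Of 12 fibroblast markers 2 fell and 0 rose.

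Other genes of the pathway gave 2 rises and 1 fall among 41, near the 3.58% and 3.09% of all tested genes. F2rl3, a thrombin receptor, rose by 0.75 (SE 0.14). Ggcx, the vitamin K-dependent carboxylase that clotting factors need, rose by 0.39 (SE 0.09). S100a10, a plasminogen-binding protein, fell by 0.64 (SE 0.17).

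Most calls in the step from day 18 to day 27 were falls. Of 32 members 15 fell and 2 rose, where 6.86% of all tested genes fell and 3.19% rose. C3 fell by 5.62 on the log2 scale (SE 0.61, adjusted p = 0.00028), and the next were Serping1 (-3.99, SE 0.66), C4b (-3.41, SE 0.57), F13a1 (-3.37, SE 0.44), Cd55 (-2.69, SE 0.48) and C2 (-2.17, SE 0.27). Serping1 was 335 and 173 at day 18 and 18.4, 17.1, 20.1 and 6.28 at day 27, with no overlap, as for 41.7% of all tested genes. The other falls were Cfb (-2.16, SE 0.53), Cfp (-2.10, SE 0.43), C6 (-2.004, SE 0.36), C5ar1 (-1.97, SE 0.54), F10 (-1.83, SE 0.37), C1ra (-1.81, SE 0.44), F7 (-1.29, SE 0.22), Tfpi2 (-1.25, SE 0.33) and Cd59a (-0.92, SE 0.25). The risers were Thbd (0.98, SE 0.27) and Colec12 (0.77, SE 0.15), both of which had been low at day 18. C3 and C2 kept the call in all 25 settings. The count of 17 was 5 without tumour 1 of day 18, 7 without tumour 2 of it, 11 without tumour 1 or tumour 2 of day 27, and 5 to 7 when the 4 tumours were averaged into 2. Under the same averaging the step from day 3 to day 6 had 7 calls, all falls. From day 18 to day 27, 7 of 7 adipocyte, 7 of 12 fibroblast and 4 of 8 skeletal muscle markers fell. So did 3 of 7 neutrophil, 2 of 8 T cell, 2 of 13 macrophage, 1 of 11 endothelial and 1 of 4 tested platelet markers. The part of these cells was not tested.

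Averaged over the late days (18 and 27) against the early days (3 and 6), 16 members were lower and 1, Plau, was higher, where 19.4% of all tested genes were lower and 20.6% higher. Plau rose by 1.39 (SE 0.15, adjusted p = 0.000187). The falls were led by F7 (-1.44, SE 0.17, adjusted p = 0.000282) and C2 (-1.59, SE 0.21, adjusted p = 0.000438). A2m (-0.96, SE 0.13), F10 (-1.97, SE 0.28), C3 (-2.59, SE 0.46) and Cfb (-1.83, SE 0.41) were also lower. Complement gave 13 of the 16 falls. C4b (-0.68, SE 0.43) and C6 (-0.53, SE 0.27) were not called. The average hides that the 2 late days differ, as the step between them shows. In the wider list 3 of 41 genes were higher and 13 lower. Among the marker lists 11 of 13 macrophage, 8 of 8 T cell, 7 of 8 skeletal muscle and 3 of 7 neutrophil markers were lower and 7 of 7 adipocyte markers higher, and their part was not tested. The calls of C1s1, C1ra, Serping1 and C5ar1 were each lost without tumour 2 of treated day 3, day 6 or day 18, and the first 3 of these also without tumour 1, 2 or 4 of day 27. Those 3 calls were lost as well in each of the 3 pairings of the day 27 tumours into 2 mice.

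Between the control groups, day 6 against day 3, limma called 0 members higher and 0 lower, as it did for 0% of all tested genes in either direction. At an unadjusted p under 0.05 there were 3 members (Plau -0.71, SE 0.22; Tfpi2 -1.02, SE 0.38; C3 -1.66, SE 0.70) and 886 genes in all. The controls varied within a day: C3 was 24.1 and 3.02, Serping1 42.0 and 6.07 and C1s1 33.4 and 7.41 in the 2 tumours of day 6. In each pair tumour 2 was the lower, as it was for macrophage marker sums (1585 and 619).

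The order of the levels differed between groups. In controls the highest means among the members were Plaur (110.4 ± 71.4, SD, n = 4), Colec12 (106 ± 12.1), Plat (78.1 ± 22.5) and Thbd (62.3 ± 15.3), while C3 averaged 22.7 ± 15.1. The spread of Plaur overlapped that of Colec12 and of Plat. At day 3 the order was C3 (496 ± 187, SD, n = 2), Cfb (437 ± 157), Serping1 (343 ± 158) and Cfp (281 ± 128), whose ranges overlapped one another. At day 27 Plau led (144 ± 16.0, SD, n = 4), followed by Plat (93.9 ± 5.13) and Colec12 (86.0 ± 5.69), and the lowest Plau tumour stood above the highest Plat tumour.

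Several members lie side by side in the genome. On GRCm38, the assembly of mm10, Cfb (chr17:34856374-34862518) ends 85 bases before C2 (chr17:34862604-34898265), both on the minus strand. The annotated gene Gm20547 overlaps both on the same strand and has its own values, which bears on how their reads can be told apart. C4b lies 112.5 kb from Cfb. C1rl, C1ra and C1s1 sit together on chromosome 6 with gaps of 1.8 and 6.9 kb, and F7 and F10 are 1.5 kb apart on chromosome 8. C3 is alone at chr17:57203970-57228136, and Plau is at chr14:20836660-20843385. Values of C1ra, C1s1, C4b, Cd55 and Cd59a are uncertain where reads are shared with the near copies C1rb, C1s2, C4a, Cd55b and Cd59b. On the opposite strand, Zbtb12 overlaps C2, A330023F24Rik overlaps Cd46, and Rtp4 and Gm45338 overlap Masp1. The sources used here do not state whether strand was used in the quantification.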

How the data were processed

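Per the labels' protocols, Trizol RNA of 14 frozen tumours went into Illumina TruSeq libraries. A single table, deposited by the authors, gives a signal for each gene symbol. Its name calls the values TPM, but column totals run from 879385 to 1084401 and differ between columns, which TPM totals do not, so the deposited signal is a TPM rescaled by steps that the sources used here do not state. Kallisto, sleuth and mm10 are named in the submitters' processing notes, without versions. Depth per sample is unknown, and values at 0 may be failed estimates.

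Symbols were matched to official case for 17859 of 18481 genes (96.6%). Coordinates come from GENCODE M21 (GRCm38) and promoters from RefSeq (GRCm38.p6). The p-values rest on log2(value + 1) for the 15841 genes at 1 or more in at least 2 tumours, fitted with limma 3.58.1 in R 4.3.3 to 6 group means with a variance trend, 2-sided, adjusted by Benjamini-Hochberg across the tested genes, with calls at 0.05. The design had assumed TPM; its filter and test were left as written. Treated days were each set against the mean of the control groups, late days with early days, and control day 6 with control day 3. Differences between successive treated days were added after seeing the data. The fitting code was tested on simulated data for the treated days against controls.

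The members and lists were chosen with earlier results of these data known. Named are every member, at most 4 genes per direction of the wider pathway list, and marker lists by summed level with at most 2 members. Beyond this, Fcna and Colec11 were named at day 3 after their values were seen, and the melanocyte list was named in full. Values in every tumour are given for the 2 members with the smallest p and those against their role group; others shown in full (such as C3 and Serping1) were chosen after their values were seen. A column gives its group but not its animal. Within days 3 and 6 animal numbers differ, 1 number recurs in a day 6 control and a treated day 3 tumour, and nothing says whether the 2 samples of day 18 come from separate mice. Alternatives were pseudocounts of 0.1 and 5, other filters, median-of-ratios rescaling, quantile normalisation, other fits and controls, 3 pairings of the day 27 tumours and leaving out each tumour. Where a group is left with a lone tumour, its spread is taken to be that of the other groups.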

Additional observations from a re-analysis of the deposited data

Results flagged for a closer look

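Within the day 27 group, 2 members had 1 tumour whose gap to the next was a large share of the range. For C1s1 the gap of the lowest tumour (23.3, the rest 25.8 to 26.0) was 0.900 of the range. For Serping1 the gap of the lowest (6.28, the rest 17.1 to 20.1) was 0.856. The range of C1s1 was itself narrow (25.2 ± 1.30, SD, n = 4). The cut-off used is passed by about 1 in 20 groups of 4 independent, normally distributed values, and many genes were examined. The 4 tumours come from 2 mice, so this rate may not apply here.

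The change against the controls differed between late and early days for 17 members by the limma test of the difference. Late minus early was 1.39 log2 units for Plau. It was -2.59 for C3, -1.97 for F10, -1.83 for Cfb, -1.69 for Cfp, -1.68 for Cd55, -1.59 for C2, -1.50 for C3ar1, -1.45 for Serping1 and -1.44 for F7. Smaller differences were -1.35 for C5ar1, -1.04 for C1s1, -1.02 for C1ra, -0.98 for C1rl, -0.96 for A2m, -0.89 for Cd46 and -0.49 for Colec12. These comparisons share the same controls, which cancel in the difference.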

How the results depend on the processing

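In the settings run, no called member changed direction. Of values of called members, 532 of 539 kept the call for day 3, 60 of 130 for day 6, 263 of 300 for day 18, 54 of 75 for day 27, and 387 of 421 for late against early. The number of members called at day 6 was 0 with the compared groups alone, with same-day controls and under each of the 3 pairings of day 27 tumours. At day 18 it was 1 with the compared groups alone. At day 27 it was 5 with a pseudocount of 0.1, 1 with a pseudocount of 5 and 1 under each pairing. From day 3 to day 6 it was 4 with the compared groups alone. From day 6 to day 18 it was 0 with a pseudocount of 0.1, median-of-ratios rescaling, quantile normalisation, the compared groups alone and each pairing. From day 18 to day 27 the pairings gave 7, 5 and 7. The cause was not tested, except that pairing leaves fewer samples.

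Leaving out 1 tumour at a time gave 18 to 23 members called at day 3, 0 to 14 at day 6, 2 to 17 at day 18, 1 to 5 at day 27, 12 to 19 for late against early and 0 to 0 between controls. For the steps it gave 2 to 14 from day 3 to day 6, 0 to 3 from day 6 to day 18 and 5 to 19 from day 18 to day 27. Over all genes, the compared groups alone gave 0 calls at day 6 in place of 937, 178 at day 18 in place of 1254, 1003 in place of 2892 from day 3 to day 6, and 57 in place of 239 from day 6 to day 18. Leaving out 1 tumour gave 4297 to 7522 calls at day 3 (7249 with all), 0 to 2145 at day 6, 314 to 2231 at day 18 and 497 to 1144 at day 27, where other settings gave as few as 162 in place of 1056. From day 18 to day 27 all-gene calls ranged from 472 to 2177 around 1592. Quantile normalisation moved the median change of all genes at day 3 from 0.02 to -0.15. No paired analysis was possible because the columns do not tie tumours to animals. Unknown depth limits what can be said of members with values under 1, such as Hc, C7, F5 and A2m.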
